A study of Rattus norvegicus with 12 samples.

Results

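The phospholipase C (PLC) genes Plcb1, Plcb4, Plcd1, Plce1 and Plcg1 were followed in primary rat oligodendrocyte precursor cells (OPCs) exposed to inflammatory cytokines, to the GPR17 agonist galinex (GAL), or to both. They are the PLC isoforms that could be given a symbol, 5 of the 30562 genes in the count tables and 5 of the 13348 that were tested. The count tables name genes by Ensembl identifier alone. The symbols of all 5 genes came from the study's list of genes called between CTK-2 and CTL, joined to the tables by mean count. Plce1 was also fixed by its position. A PLC gene outside that list, and the receptor gene Gpr17 itself, are therefore not analysed here, and whether the 5 genes act after GPR17 cannot be read from RNA levels.

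The 4 groups, of 3 libraries each, were compared, with names taken from the study. CTL cells received neither cytokines nor GAL. GAL cells received galinex at 10 nM. CTK-2 cells received 2 ng/mL each of IFN-γ, TNF-α and IL-1β. CTK2+GAL cells received the same cytokines and, 6 h later, 10 nM galinex. All cells came from the cortex of wild-type Sprague-Dawley pups of both sexes at the first postnatal days, were shaken off a mixed glial culture, expanded for days in proliferation medium and treated as they were switched to differentiating medium, with the solvent DMSO added where GAL was not. RNA was taken 24 h after GAL had been added. Such cultures are enriched and not pure, and the sex of the pups behind each library is not given. No source used here says that the replicates came from separate cultures. The p-values therefore measure the spread between these libraries, which may be technical.

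PLC enzymes cut the membrane lipid PIP2 into IP3, which releases calcium from the endoplasmic reticulum, and diacylglycerol, which stays in the membrane and activates protein kinase C. The families differ in what switches them on. PLC beta enzymes (Plcb1, Plcb4) respond to G proteins of the Gq family below receptors such as those for neurotransmitters and lipids, PLC gamma (Plcg1) is phosphorylated by receptor tyrosine kinases, PLC epsilon (Plce1) is bound by Ras and Rap GTPases, and PLC delta (Plcd1) is sensitive to calcium. In oligodendrocyte precursors, calcium signals and protein kinase C take part in the control of proliferation, process growth and differentiation, and GPR17 is made transiently by precursors on their way to maturity.

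The 5 genes lie at 4 distinct places in the rat genome (build mRatBN7.2). Plcb1 (ENSRNOG00000004810, chr3:122060031-122772869, plus strand) and Plcb4 (ENSRNOG00000033119, chr3:122953196-123322392, plus strand) are neighbours, with 180326 bases and 0 complete annotated genes between them. Plcg1 (ENSRNOG00000051490) is at chr3:149385587-149416330 on the plus strand, Plcd1 (ENSRNOG00000032238) at chr8:118795201-118818186 on the minus strand and Plce1 (ENSRNOG00000014276) at chr1:236244683-236551438 on the plus strand. Their exons add up to between 3045 bases (Plcd1) and 13433 bases (Plcb1), and no exon of the 5 overlaps an exon of another gene on either strand. All values below are reads over these exons.

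Because Plcb1 and Plcb4 sit side by side and moved in opposite directions, their promoter windows are shown, 250 bases before to 50 bases after the transcription start that RefSeq gives in build GRCr8. This is another build than that of the counts, so its coordinates are not to be set beside those above. The 4 motifs searched for are of cytokine-activated transcription factors, on both strands. They were the interferon-gamma activated site (TTCNNNGAA), the interferon-stimulated response element (GAAA, any 2 bases, GAAA), a kB element (GGG, any 2 bases, TTTCC) and an AP-1 element (TGANTCA). Capitals mark a match.

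Plcb1, GRCr8 chr3:142512515-142512814, plus strand: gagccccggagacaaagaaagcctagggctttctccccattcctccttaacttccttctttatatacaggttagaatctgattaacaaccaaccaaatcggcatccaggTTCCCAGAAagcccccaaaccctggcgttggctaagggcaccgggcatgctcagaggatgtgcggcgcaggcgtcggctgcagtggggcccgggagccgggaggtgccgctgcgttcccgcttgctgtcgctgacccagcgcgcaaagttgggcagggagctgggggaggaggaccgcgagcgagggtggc

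Plcb4, GRCr8 chr3:143405723-143406022, plus strand: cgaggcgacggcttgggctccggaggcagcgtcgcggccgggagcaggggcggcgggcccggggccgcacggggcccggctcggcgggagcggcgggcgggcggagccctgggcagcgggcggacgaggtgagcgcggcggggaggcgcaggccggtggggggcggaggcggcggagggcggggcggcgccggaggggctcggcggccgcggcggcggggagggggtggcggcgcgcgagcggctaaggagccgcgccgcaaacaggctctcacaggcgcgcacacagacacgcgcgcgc

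The single match among the 4 members with a window was the TTCCCAGAA in the Plcb1 window, which begins 141 bases before the start. A TTCNNNGAA match stood in 8.9% of all 33469 windows of that length, an interferon-stimulated response element in 3.9%, a kB element in 1.5% and a TGANTCA match in 7.3%. The windows of Plcb4, Plcd1 and Plcg1 held 0 matches of these letters. Base composition separated the neighbours, with 61.7% G or C and 19 CpG dinucleotides in the Plcb1 window and 84.3% and 55 in the Plcb4 window. Plcg1 had 78.7% and 47, Plcd1 had 69.3% and 20, and the median of all windows was 51.7% and 7.

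Sequencing depth lay between 2600797 counts (GAL replicate 1) and 8978185 counts per library. Counts of the 5 genes in single libraries ran from 53 (Plcd1 in GAL replicate 1) to 1392 (Plcg1 in CTK2+GAL replicate 3), so the lowest Plcd1 values carry the largest counting error. Levels are in CPM, that is counts relative to the library size after TMM normalization. Libraries of the same group differed by more than sampling noise in every group, so none was counted as a repeat of another. CTL replicate 3 and GAL replicate 3 stood apart from the other 4 libraries without cytokines. Their summed level over 10 cytokine response genes was 1100 CPM in each, against 56.6 to 66.7 in the other 4 and 4930 to 5580 in the 6 cytokine libraries. B2m, the light chain of MHC class I, was at 792 and 823 CPM in the pair and at 21.5 to 32.2 CPM in the other 4, whereas the NF-κB target Nfkbia was not raised (13.5 and 15.6 CPM, against 13.9 to 18.8). Most of the rest of the sum was Tap1 (207 and 182 CPM) and Irf1 (77 and 65.3 CPM). The median of the 10 genes was 4.46 and 4.04 CPM in the pair, against 2.19 to 4.46 CPM in the other 4, so few genes carried the sum. For CTK2+GAL versus GAL the log2 fold changes of the 5 genes are also given without the pair. Other levels, shares and comparisons of the 5 genes that use these libraries are given with it. The oligodendrocyte lineage genes with a symbol, 10 of the 19 listed, were detected in all groups at summed levels of 5160 to 5530 CPM, so the labelled cell type is seen in its markers.

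The first comparison asked which PLC genes differed between cytokine-treated and untreated cells when GAL was present in both, CTK2+GAL versus GAL. The list that gave the symbols was called on a contrast of the other 6 libraries. Its mean counts, however, ran over all 12, so GAL and CTK2+GAL libraries entered the list and the join, and the comparison is not independent of them. Plce1, Plcd1, Plcb4 and Plcg1 rose and Plcb1 fell. All 5 genes were called, which took an adjusted p no greater than 0.05 and a log2 fold change of 0.59 or more in either direction. Of all genes tested 17.4% were called (11.7% higher, 5.74% lower; quasi-likelihood F test of edgeR, Benjamini-Hochberg adjusted). Among the 1768 genes with a symbol, which the study had called in CTK-2 versus CTL, 85.7% were called here as well. A count of 5 of 5 is therefore close to what the source of the symbols gives and says nothing particular about PLC genes.

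Plce1, the isoform that Ras and Rap bind, had the largest change. In GAL its levels were 31.0, 31.7 and 33.3 CPM in replicates 1, 2 and 3, and in CTK2+GAL they were 104, 105 and 101 CPM. Each cytokine-treated library was thus near or above 100 CPM and none overlapped a GAL library. The change on the log2 scale was 1.68 (standard error 0.066, edgeR adjusted p = 1.98e-12), which is 3.21-fold with a 95% interval of 2.91 to 3.53. As a size among all tested genes, 4.18% rose at least that far. Genes with a symbol had been called under the same cytokines, so the choice of members had partly fixed a high rank.

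Plcb1, which is driven by Gq, was the gene that fell. Its levels were 102, 110 and 119 CPM in GAL and 65.7, 67.1 and 69.0 CPM in CTK2+GAL, with no overlap. On the log2 scale the change was -0.72 (standard error 0.068, edgeR adjusted p = 9.31e-08), a fold of 0.606 with a 95% interval of 0.549 to 0.669. Of all tested genes, 4.9% fell at least that far, a rank with the same limit. Called lower were 5.74% of all genes tested and 26.8% of those with a symbol.

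Plcb4 belongs to the same Gq-driven family and rose. GAL libraries were at 32.2, 39.9 and 46.9 CPM, a wide spread for this gene, and CTK2+GAL libraries at 68.8, 66.4 and 65.6 CPM. The groups did not overlap, and the log2 change was 0.71 (standard error 0.098, edgeR adjusted p = 1.25e-05). In the pair of libraries that stood apart, Plcb4 was the highest of its group in each (48.3 CPM in CTL replicate 3 and 46.9 CPM in GAL replicate 3), and without both libraries its log2 fold change was 0.84 (edgeR adjusted p = 1.35e-08). Plcb1 was also the highest of its group there, at 116 and 119 CPM, and Plce1 was at 31.0 and 33.3 CPM, within or close to the range of the other 4 libraries (29.0 to 31.7 CPM). Without the pair the log2 changes were -0.67 for Plcb1, 0.77 for Plcd1, 1.71 for Plce1 and 0.66 for Plcg1, and all 5 genes were still called.

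Plcg1, which receptor tyrosine kinases phosphorylate, rose from 109, 95.3 and 101 CPM in GAL to 173, 151 and 154 CPM in CTK2+GAL, without overlap. Its log2 change of 0.65 (standard error 0.069, edgeR adjusted p = 5.07e-07) was the smallest of the 5. Plcd1, the calcium-sensitive isoform, rose from 20.6, 17.9 and 17.4 CPM to 26.8, 38.3 and 31.2 CPM. Relative to their mean, its CTK2+GAL libraries were more spread than those of the other members, yet none overlapped GAL. The log2 change was 0.82 (standard error 0.13, edgeR adjusted p = 6.59e-05). The 95% interval lay wholly beyond the fold threshold of 0.59 for Plce1 alone (1.54 to 1.82), and included it for Plcb1 (-0.86 to -0.58), Plcb4 (0.50 to 0.92), Plcd1 (0.54 to 1.09) and Plcg1 (0.51 to 0.80).

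**Figure D1:**
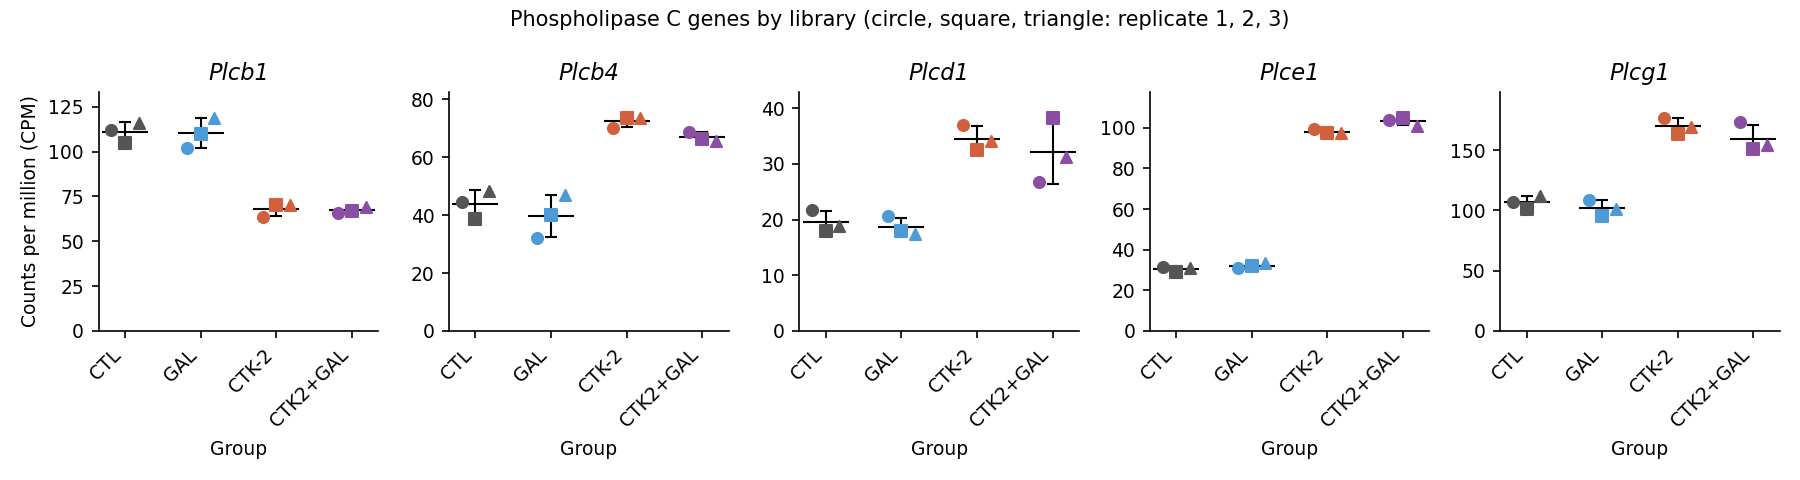
Level of each PLC gene in CPM (vertical axis, from 0) in the 12 libraries by group, with circle, square and triangle for replicates 1, 2 and 3 and a black bar for the mean with its SD (n = 3). In each panel the CTL and GAL points lie together and the CTK-2 and CTK2+GAL points lie together, higher for Plcb4, Plcd1, Plce1 and Plcg1 and lower for Plcb1.

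In all 5 genes no CTK2+GAL library overlapped a GAL library. That was so for 49.5% of all genes tested (25.5% higher and 24% lower), so the separation of libraries is common in these data. TMM scaling sets the bulk of genes near 0 (the median log2 fold change of all genes tested was 0.006), and changes are relative to that bulk. In bulk RNA, fewer cells of a type and less RNA per cell cannot be told apart.

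The comparison CTK-2 versus CTL gave the symbols and is a description with no test. Plcb1 was at 112, 105 and 116 CPM in CTL and 63.8, 70.3 and 70.0 CPM in CTK-2. Plce1 was at 31.5, 29.0 and 31.0 CPM in CTL and 99.6, 97.2 and 97.3 CPM in CTK-2. Plcg1 was at 107, 101 and 112 CPM against 177, 163 and 169 CPM. These are the same directions and nearly the same levels as with GAL present. For Plcb4 the values were 44.4, 38.8 and 48.3 CPM in CTL and 70.1, 73.6 and 73.7 CPM in CTK-2, and for Plcd1 they were 21.7, 17.9 and 18.8 CPM and 37.0, 32.5 and 34.1 CPM. The log2 fold changes were -0.71 for Plcb1 (standard error 0.068), 0.72 for Plcb4 (0.095), 0.82 for Plcd1 (0.13), 1.68 for Plce1 (0.065) and 0.67 for Plcg1 (0.068). Here 17.3% of all genes tested were called, and nothing is read from the fact that all 5 were.

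Galinex itself left the 5 genes without a call. In GAL versus CTL the log2 fold changes were 0.00 for Plcb1 (95% interval -0.14 to 0.14), -0.11 for Plcb4 (-0.33 to 0.11), -0.10 for Plcd1 (-0.40 to 0.21), 0.08 for Plce1 (-0.09 to 0.24) and -0.07 for Plcg1 (-0.22 to 0.08), each with an adjusted p of 1 in edgeR's test. Across all genes 0 were called by edgeR and 0 by DESeq2 (0% of those tested), and 574 had an unadjusted p of at most 0.05 in edgeR, 4.3% of the genes. None of the 5 PLC genes was among those 574, and the groups overlapped for each, where 8.32% of all genes did not overlap.

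After cytokines the picture was similar. In CTK2+GAL versus CTK-2 the log2 fold changes were -0.02 for Plcb1 (95% interval -0.16 to 0.13), -0.12 for Plcb4 (-0.31 to 0.07), -0.10 for Plcd1 (-0.34 to 0.14), 0.08 for Plce1 (-0.04 to 0.19) and -0.09 for Plcg1 (-0.23 to 0.05), with adjusted p of 1 in edgeR for each. The intervals leave room for small effects and do not show that galinex has none. Plce1 was higher in all 3 CTK2+GAL libraries (101 to 105 CPM) than in any CTK-2 library (97.2 to 99.6 CPM). Plcb4 was lower in all 3 (65.6 to 68.8 CPM against 70.1 to 73.7 CPM). Libraries did not overlap for 11.5% of all genes in this comparison, and neither gene passed the test. Again 0 genes were called by edgeR and 0 by DESeq2 (0% of those tested), and 545 had an unadjusted p of at most 0.05 in edgeR, 4.08% of the genes, with 0 of the 5 among them.

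Whether the GAL effect differed with cytokines was tested as an interaction. The 5 log2 values lay between -0.02 and 0.00, and the widest 95% interval was that of Plcd1 (-0.40 to 0.39). Adjusted p was 1 for each, and 0 of all genes were called by edgeR and 0 by DESeq2, with 2.82% of genes at an unadjusted p of at most 0.05 in edgeR. The comparisons with and without GAL share no libraries, whereas GAL versus CTL and CTK-2 versus CTL share CTL, and CTK2+GAL versus GAL and CTK2+GAL versus CTK-2 share CTK2+GAL, so the values are given side by side and not counted as repeats.

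**Figure D2:**
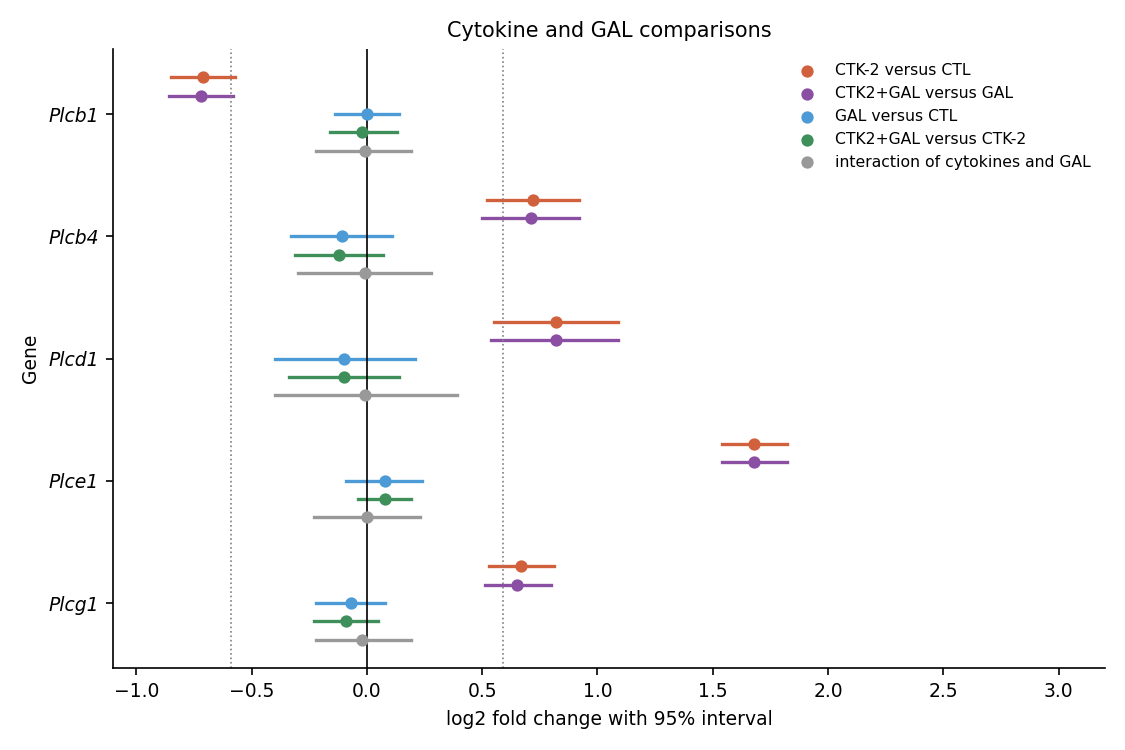
Log2 fold change (horizontal axis) of each PLC gene in 5 comparisons, points with 95% intervals, and dotted lines at the fold threshold of 0.59 in both directions. The cytokine comparisons sit at or beyond a dotted line, from -0.72 for Plcb1 to 1.68 for Plce1, and the intervals of the GAL comparisons and of the interaction all cross 0.

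Levels between isoforms were compared per length, as CPM per kb of exon. The length is that of all annotated exons and not of the transcript made, so the order rests on the annotation. Without this division Plcb1 had the highest mean of the 5 in CTL (111 CPM). In CTK-2 Plcd1 then had the lowest (34.5 CPM), below Plcb1 (68 CPM). In CTL the order was Plcg1 at 20.6 ± 1.06 CPM per kb (SD, n = 3), Plcb1 at 8.28 ± 0.442, Plcb4 at 8.0 ± 0.877, Plcd1 at 6.39 ± 0.649 and Plce1 at 3.64 ± 0.155. The libraries of Plcb1 and Plcb4 overlapped, as did those of Plcb4 (7.07 to 8.82) and Plcd1 (5.87 to 7.12). Plce1 was below all others in every CTL library. In GAL the order was the same, with Plcg1 at 19.7 ± 1.37 CPM per kb, Plcb1 at 8.22 ± 0.602, Plcb4 at 7.24 ± 1.34, Plcd1 at 6.11 ± 0.562 and Plce1 at 3.82 ± 0.143, and the same neighbours overlapped.

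With cytokines the order changed below Plcg1. In CTK-2 Plcg1 was at 32.8 ± 1.41 CPM per kb, Plcb4 at 13.2 ± 0.38, Plce1 at 11.7 ± 0.159, Plcd1 at 11.3 ± 0.749 and Plcb1 at 5.07 ± 0.275. The ranges of Plce1 (11.6 to 11.9) and Plcd1 (10.7 to 12.2) overlapped, and Plcb1 had become the lowest. In CTK2+GAL Plcg1 was at 30.8 ± 2.33 CPM per kb, Plce1 at 12.3 ± 0.282, Plcb4 at 12.2 ± 0.307, Plcd1 at 10.6 ± 1.91 and Plcb1 at 5.01 ± 0.124. There the ranges of Plce1, Plcb4 and Plcd1 overlapped. Over the 12 libraries Plcg1 stood at the 79.1 percentile of all tested genes per length, and the other 4 between the 40.6 (Plcb1) and the 52.1 percentile (Plcb4).

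Sums and shares cover only the 5 genes, which come from genes called with cytokines, so that choice made a change of the sum likely. Of 18 listed PLC genes 7 had a symbol, so the sum is not the total of PLC genes. The summed level of the 5 genes was 46.9 ± 2.8 CPM per kb in CTL, 45.1 ± 1.5 in GAL, 74.1 ± 1.7 in CTK-2 and 70.9 ± 1.5 in CTK2+GAL (SD, n = 3). Its makeup moved while Plcg1 kept between 43.4% and 44.2% of it in the 4 group means. The share of Plce1 was 7.77% ± 0.2 in CTL and 8.47% ± 0.24 in GAL, and 15.8% ± 0.21 in CTK-2 and 17.4% ± 0.16 in CTK2+GAL. Plcb1 went the other way, from 17.7% ± 0.21 and 18.2% ± 1.1 to 6.84% ± 0.51 and 7.07% ± 0.33. The ratio of Plcb1 to Plcb4 per kb was 1.03, 1.10 and 0.983 in the CTL libraries and 1.30, 1.13 and 1.03 in GAL, against 0.371, 0.390 and 0.387 in CTK-2 and 0.389, 0.412 and 0.429 in CTK2+GAL. No cytokine library overlapped a library without cytokines in this ratio.

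**Figure D3:**
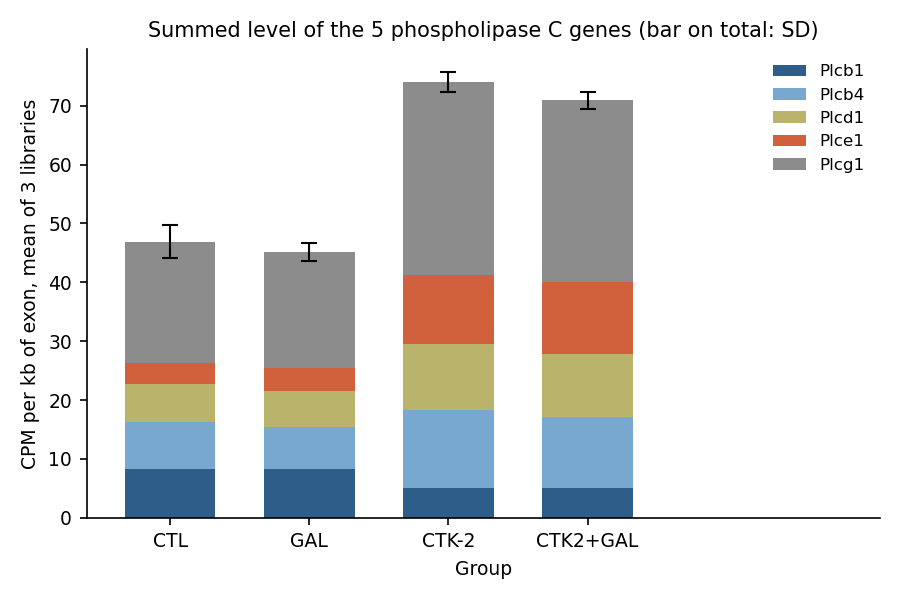
Stacked mean levels of the 5 PLC genes in CPM per kb of exon (vertical axis, from 0) by group, with the SD of the total as an error bar (n = 3). The total was 46.9 in CTL and 74.1 in CTK-2, the Plce1 segment widened from 3.64 to 11.7 and the Plcb1 segment narrowed from 8.28 to 5.07. PLC genes without a symbol are not in the total.

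The opposite directions of Plcb1 and Plcb4 were looked at along the chromosome. The nearest tested gene on the other side of Plcb1, which has no symbol here, moved by 0.03 on the log2 scale (standard error 0.064) in CTK2+GAL versus GAL, and the nearest tested gene beyond Plcb4 by -0.66 (standard error 0.10, edgeR adjusted p = 4.36e-05). Neighbours in this stretch therefore included a gene that rose, 2 that fell and 1 with no call. Plcg1 ends 1487 bases from Zhx3, a transcriptional repressor gene on the opposite strand named after its value was seen, whose log2 change was 0.62 (standard error 0.071, edgeR adjusted p = 1.31e-06). On its other side the nearest tested gene, 8963 bases away, had -0.05 (standard error 0.066). The neighbours of Plce1 had -0.91 (standard error 0.26, edgeR adjusted p = 0.00999) and 0.16 (0.16), and those of Plcd1 had 0.30 (0.10) and -0.16 (0.52). The counts were made by strand, and whether any reads of Plcg1 were still counted for Zhx3 was not tested. Zhx3 has a symbol because the study had called it in CTK-2 versus CTL, and 85.7% of such genes were called here.

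Other genes of the family with a symbol were Plcl2, a PLC-like protein without catalytic activity, and Plcxd2, which carries only the X domain of the PLC core. Of 18 listed PLC genes, 7 had a symbol and all 7 were called in CTK2+GAL versus GAL, 5 higher and 2 lower, against 17.4% of all genes tested and 85.7% of those with a symbol (58.9% higher, 26.8% lower). Plcl2 rose from 22.4 ± 1.75 to 34.2 ± 0.631 CPM (SD, n = 3; log2 fold change 0.61, standard error 0.099). Plcxd2 fell from 9.39 ± 0.697 to 5.76 ± 0.688 CPM (log2 fold change -0.69, standard error 0.24). In CTK2+GAL versus CTK-2, Plcl2 was lower in all 3 libraries, by -0.25 on the log2 scale (95% interval -0.44 to -0.07, unadjusted p = 0.0107 and adjusted p = 1, edgeR), which did not pass.

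Genes that act before and after PLC were taken from lists, of which only members with a symbol could be read. Since the study chose all of these symbols on CTK-2 versus CTL, their counts are set beside the 85.7% of genes with a symbol that were called and the 17.4% of all genes tested. Of genes with a symbol 58.9% were called higher and 26.8% lower. A median above 0 in a list was therefore partly fixed by that choice and is not read as a rise of a pathway. Among 10 of 37 receptors, G protein subunits and their regulators, 7 rose and 3 fell, with a median log2 fold change of 0.84. Rgs2, which speeds the shut-off of Gq, rose from 7.64 to 39.7 CPM (log2 fold change 2.36, standard error 0.15). Grk5, a kinase that desensitises receptors, had 0.96 (0.10), and Gng12, a G protein gamma subunit, fell with -0.71 (0.058).

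Among 8 of 29 receptor tyrosine kinases and PLC gamma partners, 6 rose and 2 fell (median log2 fold change 0.80). Egfr rose from 0.864 to 9.38 CPM and Src, a kinase of many receptor complexes, from 107 to 266 CPM, with log2 fold changes of 3.23 (standard error 0.30) and 1.32 (0.092). Erbb3, a neuregulin receptor, fell from 97.9 to 13.5 CPM (-2.80, 0.25). Of 20 small GTPases and exchange factors around PLC epsilon, 3 had a symbol. The GTPases Rras (3.02, standard error 0.27) and Mras (0.89, 0.084) rose and Rapgef5, an exchange factor for Rap, fell (-1.70, 0.12).

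Below PLC, 5 of 38 genes of the IP3 and calcium branch had a symbol, and 4 rose and 1 fell (median log2 fold change 0.80). Inpp1, which removes phosphate from inositol phosphates, rose from 7.95 to 29.5 CPM (1.83, standard error 0.14). Camk2d, a calcium and calmodulin-dependent kinase, rose by 0.83 (0.068), and Nfatc2, a calcium-regulated transcription factor, had -1.09 (0.16). In the diacylglycerol branch 7 of 34 genes had a symbol, with 4 higher, 2 lower and a median of 0.70. Mgll, which breaks down monoacylglycerol, fell from 92.1 to 13.9 CPM (-2.71, 0.18), Chn2, a Rac regulator that binds diacylglycerol, had -1.27 (0.058) and Prkce, a protein kinase C isoform, rose with 0.72 (0.11). The one not called, Dgkh, was chosen after its value of 0.56 (0.14) was seen and passed the adjusted p but not the fold threshold. None of 23 genes that supply PIP2 had a symbol. In CTK2+GAL versus CTK-2 and in GAL versus CTL, 0 genes of these lists were called, by edgeR.

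**Figure D4:**
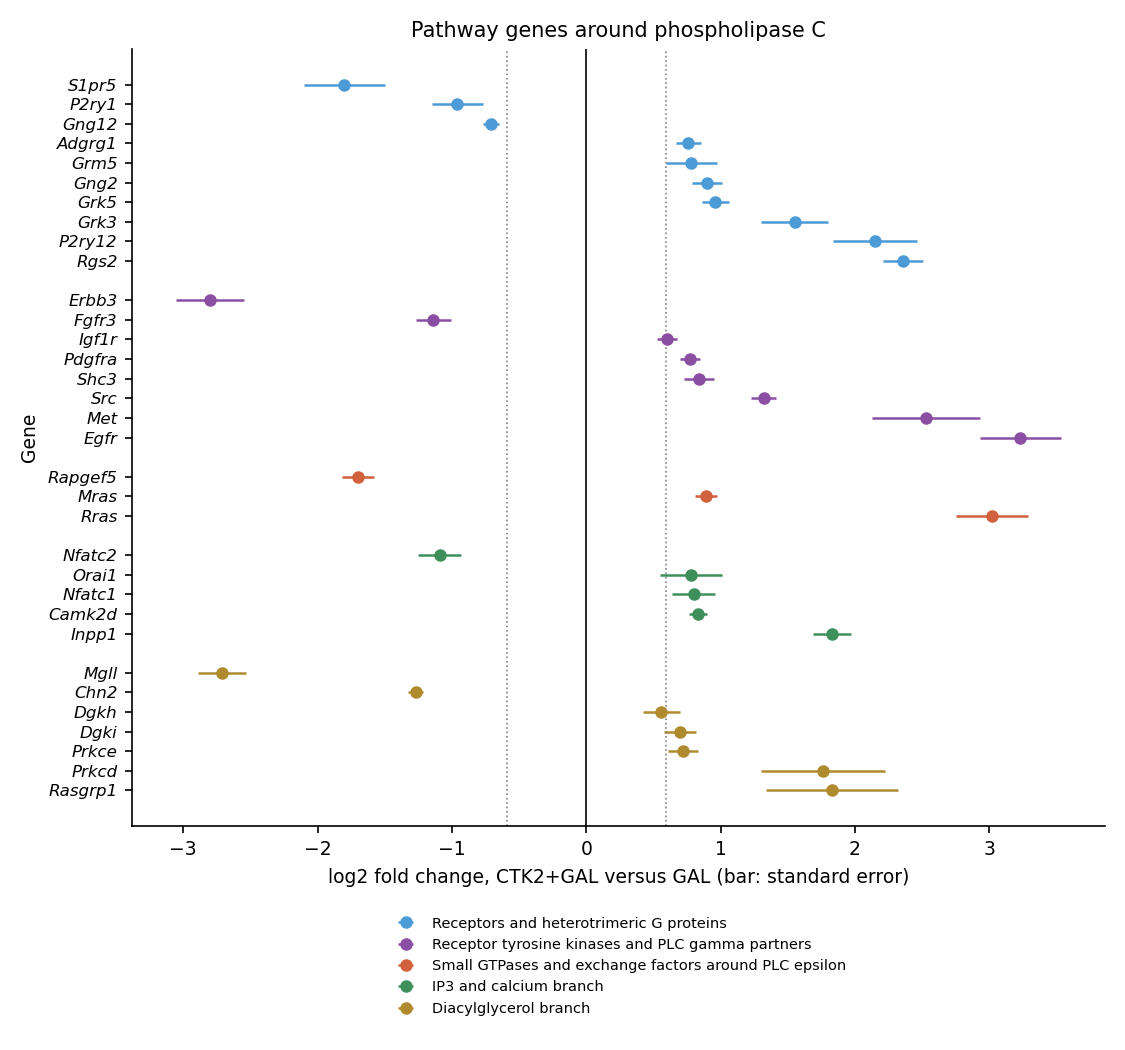
Log2 fold change in CTK2+GAL versus GAL (horizontal axis, bars are the standard error) of the genes with a symbol in 5 lists around PLC, with dotted lines at the fold threshold of 0.59. Each list held genes on both sides of 0, from Erbb3 at -2.80 to Egfr at 3.23.

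The likeness of profiles was measured as the root mean square difference of log2 CPM, each gene centred on its own mean over the 12 libraries, against 1767 other genes with a symbol. Near to Plcb1 were Eprs (0.058) and Lsamp (0.060). The nearest to Plcb4 were Rnf144a (0.071), Ythdc2 (0.082) and Lmf1 (0.090), and for Plcd1 Fnbp1 (0.120), Itgb5 (0.122) and Lmo4 (0.128). Plce1 was nearest to Adora1, an adenosine receptor gene (0.094), Rnf128 (0.099) and Cd47 (0.106), and Plcg1 to Zfp219 (0.055), Grik5 (0.055) and Pcdh1 (0.056). These values describe the shape of the profile over the same 12 libraries, which all share the cytokine contrast.

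Markers of other cells moved with the cytokines too. The flasks had been shaken to remove microglia before OPCs were collected, and the study stained one of its preparations for astrocyte and microglia proteins. It reported very few cells with the astrocyte protein and none detectable with the microglia protein. Whether that preparation was among those sequenced is not given. Every marker read here has a symbol only because the study had called it in CTK-2 versus CTL, and of such genes 58.9% were called higher and 26.8% lower in CTK2+GAL versus GAL (11.7% and 5.74% of all genes tested). Of 14 microglia markers, 5 had a symbol, and their summed level was 2.41 to 13.4 CPM in the CTL and GAL libraries and 92.9 to 115 CPM in the cytokine libraries. The upper end of the first range came from the pair that stood apart (12.3 CPM in CTL replicate 3 and 13.4 CPM in GAL replicate 3), and the other 4 libraries lay at 2.41 to 4.37 CPM. In the cytokine libraries most of it was Cd74 (73.3 to 94.1 CPM), which interferon-gamma induces in many cells. The other 4 together went from 2.24 to 10.5 CPM to 18.5 to 24.3 CPM, with Ptprc, which defines leukocytes, at 0 to 1.03 CPM and 2.13 to 3.14 CPM. In CTK2+GAL versus GAL 4 of the 5 were called higher. The astrocyte markers with a symbol, 2 of 10, were 1 higher and 1 lower. Sox9 was at 16.5 CPM in GAL and 58.8 CPM in CTK2+GAL, and Aldoc at 257 and 160 CPM. Their sums, 245 to 301 CPM without cytokines and 210 to 224 CPM with them, were mostly Aldoc. Both fibroblast and vessel markers with a symbol, 2 of 9, were higher, at sums of 1.67 to 3.49 CPM and 10.7 to 15.7 CPM, and 0 of 9 neuron markers had a symbol. Among the 10 oligodendrocyte lineage genes 3 were higher, Cspg4, Pdgfra and Ptprz1 of precursors, and 7 lower. The part of these cells, and of maturation, in the PLC values was not tested.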

How the data were processed

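Poly(A) or total RNA selection is not given in the sources used here. The authors ran FastQC and STAR and deposited raw counts of read pairs per gene. Per the file headers, featureCounts 2.0.0 counted them over exons of Ensembl release 112 (mRatBN7.2), reverse-stranded, with both ends mapped, and without chimeric, multi-mapping or marked duplicate pairs. The deposited counts are neither filtered nor normalized. Library totals are given in the report, and the precision of low counts follows from them.

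Symbols came from the study's list of genes called in CTK-2 versus CTL, from which only the symbol and the mean normalized count were used. Library factors were fitted to these means, and 1768 of 1786 entries matched 1 gene at a relative tolerance of 8e-05. Of 893 held-out entries 883 matched, all 883 to the same gene, and of 1221 entries with 1 candidate by mean alone, 99.9% lay on the chromosome that RefSeq gives. Plce1 was also fixed by its position. Promoter windows are those of RefSeq for GRCr8.

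Genes whose mean over the 12 libraries reached 5 counts were fitted with edgeR 4.0.16 (R 4.3.3) after TMM normalization, by a quasi-likelihood model of the 4 group means, and p-values were adjusted over all 13348 genes. The thresholds for a call are those of the study's methods. The standard error is the size of the log2 fold change over the root of its F statistic. Log2 CPM for profiles used a prior count of 2. The fit was tested on simulated data. DESeq2 1.42.0 and the settings of the closing section were alternatives.

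Members, lists and tests were chosen with earlier results of these data known. The rule for named genes took the 5 members, other PLC genes with a symbol, of each list the up to 3 genes lowest in adjusted p in CTK2+GAL versus GAL and the 3 nearest profiles of each member, of which 1 is not reported here. Same-numbered libraries were checked for pairing by the correlation of their deviations from the group mean. In GAL versus CTL it was 0.258, 0.26 and 0.596, above a limit of 0.1 in every pair. Unlike-numbered libraries passed it too, with 0.233 for GAL replicate 2 and CTL replicate 1. GAL replicate 1 and CTL replicate 2 had 0.149. Replicate 3 of either group had -0.436 to -0.307 with the other numbers. The values set replicate 3 apart and do not show that replicates 1 and 2 pair by number. The labels give no pairing. In the other comparisons every same-numbered pair lay below 0.1, the highest at 0.071 (replicate 2 of CTK-2 and CTL).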

Additional observations from a re-analysis of the deposited data

How the results depend on the processing

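All 5 PLC genes were called in CTK2+GAL versus GAL, and 0 in the 2 GAL comparisons and the interaction, under each alternative run: DESeq2, its size factors in edgeR, total counts, no filter on low counts, filterByExpr, leaving out the least variable 15% of genes, a replicate block, only the libraries compared, no fold threshold, and each library left out. In CTK-2 versus CTL all 5 were called each time, which the choice of members had fixed and which supports nothing. Log2 fold changes in CTK2+GAL versus GAL stayed within -0.76 to -0.67 for Plcb1, 0.62 to 0.85 for Plcb4, 0.69 to 0.91 for Plcd1, 1.66 to 1.72 for Plce1 and 0.59 to 0.70 for Plcg1. The lowest Plcg1 value, without CTK2+GAL replicate 1, lay at the fold threshold. In the 3 comparisons without calls, 19 of 315 values changed sign, all with a size of at most 0.13.

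Over all genes, calls in CTK2+GAL versus GAL ran from 2032 to 2418 and in CTK-2 versus CTL from 2121 to 2523 with 1 library left out. Without the fold threshold they were 5290 and 5213, by construction. With no filter on low counts 2 genes were called in GAL versus CTL and 4 in the interaction, and without CTL replicate 3 and GAL replicate 3 together, an alternative chosen after seeing the data, 4 and 6. The cause was not tested. With the replicate block 2321 and 2320 genes were called in the cytokine comparisons and 0 in the other 3, and a block over CTL and GAL libraries alone, also added after seeing the data, gave 0 genes in GAL versus CTL. The block changed no call of a PLC gene. Without division by length the share of Plcb1 in CTL was 35.7%, in place of 17.7%. The counts of GAL replicate 1, the shallowest library, limit Plcd1 most.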
